A study of Homo sapiens with 9 samples.

Results

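This section describes the well-expressed long noncoding RNAs (lncRNAs) of SUIT2, an established cell line from a human pancreatic cancer, after interferon beta (IFNβ) or control treatment. A gene was included when the deposited table gave it the lncRNA biotype and its mean level reached 5 CPM (read counts scaled to a common library total and normalized between libraries by the TMM method) in at least 1 group. The rule found 252 lncRNAs among 16859 rows of that biotype and 59609 genes in all. Of those rows, 7708 had at least 1 count in a library and 1413 were abundant enough to test, and each of the 252 was tested. The study had 3 groups of 3 libraries: cells given 100 U/mL human IFNβ for 6 h, cells given the same dose for 24 h, and control-treated cells. No duration is labelled for control treatment. All cells had grown for 24 h in 6-well plates before treatment, and the study asked which transcripts change after the 2 exposure times. Total RNA was sequenced, and the sources used here do not give the RNA selection step, the counting strand or whether replicates were separate cultures. P-values therefore measure only the spread between these libraries, which may be technical.

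LncRNAs are transcripts that are not known to encode a protein. Some act as RNA in the nucleus, as MALAT1 does in nuclear speckles and NEAT1 in paraspeckles, and others mainly carry small nucleolar RNAs (snoRNAs) or microRNAs in their introns or exons. Type I interferons bind a cell-surface receptor and activate transcription factors that bind the interferon-stimulated response element (ISRE) of target genes. Many target genes have an antisense or divergent lncRNA beside them.

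Library totals ran from 16799278 to 37420457 estimated counts at 6 h, from 25270387 to 40384407 at 24 h and from 15101734 to 19632741 in control. Treated libraries were on average deeper, so a gene at the threshold rested on fewer reads in control. The ductal and epithelial markers of the labelled cell type were present, with 8 of 8 tested, summing to 5543 to 5848 CPM at 6 h, 5428 to 5554 CPM at 24 h and 4903 to 4964 CPM in control. They did not move as one: KRT8 averaged 3180 CPM at 6 h, 2745 CPM at 24 h and 2569 CPM in control, whereas KRT7 averaged 158 CPM, 125 CPM and 211 CPM in the same order of groups. The leukocyte markers PTPRC, CD3E, MS4A1 and NKG7 had no count in any library, while the summed level of the 11 listed was 371.9 to 388.9 CPM at 6 h, 404.5 to 426.2 CPM at 24 h and 258.2 to 261.1 CPM in control, nearly all of it LYZ and CD68. The 12 fibroblast, endothelial and acinar markers summed to 2.85 to 2.92 CPM at 6 h, 2.95 to 3.44 CPM at 24 h and 2.15 to 3.02 CPM in control. The part of other cells in the results was not tested.

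Of the 252 lncRNAs, 177 reached 5 CPM in all 3 groups and 206 reached it in control. Another 46 reached it only in treated cells (11 at 6 h only, 27 at 24 h only and 8 at both times) and 7 only in control, so the rule itself required these 2 sets to differ. Just inside the threshold were APTR at 5.03 CPM, AL022311.1 at 5.11 CPM and LINC00339 at 5.14 CPM, each in its highest group. Just outside were LINC00467 at 4.97 CPM, AC008514.1 at 4.96 CPM and AC004080.2 at 4.94 CPM. FP236383.4, FP236383.5 and FP671120.6 had identical values in every library, so they are not independent measurements. Another 10 genes at 5 CPM or more carried lncRNA together with another biotype and were not included. Of the 252, 152 overlapped a protein-coding gene by at least 1 base and 100 overlapped none.

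Most of the change was small, and large rises belonged to a few lncRNAs, among them PSMB8-AS1, IRF1-AS1 and HCP5. Each of these named lncRNAs reached 5 CPM only in treated cells, so the rule required it to be higher there. At 6 h against control, 111 of the 252 lncRNAs passed edgeR's quasi-likelihood test at a Benjamini-Hochberg adjusted p under 0.05, with 44 higher and 67 lower. This is 44.0% of them, against 32.9% of all 16964 genes tested (17.5% higher and 15.4% lower) and 43.1% of the 10581 protein-coding genes at 5 CPM or more in at least 1 group (22.4% higher and 20.8% lower). At 24 h against control 156 passed, 79 higher and 77 lower, which is 61.9%, against 50.0% of all genes (24.7% higher and 25.3% lower) and 61.9% of those coding genes. At 24 h against 6 h 164 passed, 86 higher and 78 lower, which is 65.1%, against 57.2% of all genes and 68.8% of those coding genes. The share called was thus close to that of coding genes past the same 5 CPM floor in each comparison. These coding genes were not matched to the lncRNAs for level above that floor. Among the 206 lncRNAs with 5 CPM or more in control, 94 (45.6%) passed at 6 h, 30 higher and 64 lower, and 120 (58.3%) passed at 24 h, 43 higher and 77 lower, while 128 (62.1%) passed between the times. The median log2 fold change of the 252 was -0.08 at 6 h, -0.01 at 24 h and 0.01 between the times, beside -0.01, 0.00 and -0.02 for all genes tested. In bulk RNA, fewer cells that express a gene and less RNA per cell cannot be told apart.

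**Figure D1:**
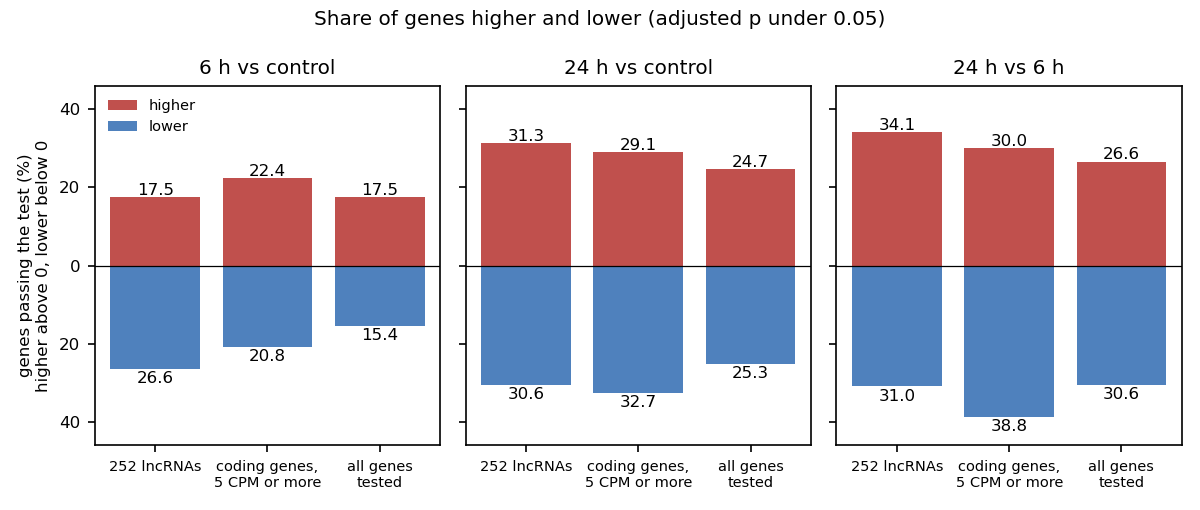
Percentage of genes that passed the test (adjusted p under 0.05) higher (above 0) or lower (below 0), for the 252 lncRNAs, protein-coding genes at 5 CPM or more in at least 1 group and all genes tested. Lower calls exceeded higher ones among the lncRNAs at 6 h (26.6% against 17.5%), and the 2 directions were near even at 24 h. The evenness at 24 h depends on the membership rule. The 46 lncRNAs at 5 CPM or more in treated groups only gave 36 higher and 0 lower. The 177 at 5 CPM or more in all 3 groups gave 38 higher and 63 lower.

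The balance of higher and lower calls depended on the scaling. Of the calls at 6 h, 39.6% were higher with TMM scaling, 21.1% with library size only and 85.3% in the authors' normalized table, where 34 lncRNAs passed. At 24 h the share was 50.6%, 61.5% and 96.2%, and between the times it was 52.4%, 74.0% and 81.2%. Library size only moved the median log2 change of all genes to -0.14 at 6 h, 0.08 at 24 h and 0.20 between the times, and the authors' table moved it to 0.13, 0.37 and 0.21. Small falls are therefore relative to the median gene. Among the 111 called at 6 h, 13 were at least 2-fold higher and 0 at least 2-fold lower, and 54 of the 67 falls were under 1.5-fold. At 24 h, 20 were at least 2-fold higher and 5 at least 2-fold lower. The large rises include lncRNAs that reached 5 CPM only in treated cells, whose rise the rule required. The share of all genes past 2-fold was not counted.

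The 10 largest rises at 6 h ranged in log2 fold change from 1.58 to 4.89. Of these, 9 reached 5 CPM only in treated cells, so their rise is a description of how they entered the set, and CHROMR was the exception. PSMB8-AS1 (chr6:32844078-32846500, plus strand, hg38) overlaps the immunoproteasome subunit genes PSMB8 and PSMB9 and the peptide transporter gene TAP1. It measured 16.0, 14.6 and 15.5 CPM at 6 h, 7.67, 8.08 and 8.31 CPM at 24 h and 1.20, 0.86 and 1.304 CPM in control. The groups did not overlap, and 24 h lay between the others. Its log2 fold change was 3.79 ± 0.13 (SE) at 6 h and 2.86 ± 0.14 at 24 h (edgeR adjusted p = 1.85e-12 and 1.54e-10). IRF1-AS1 (chr5:132410636-132488702, plus strand; CARINH in RefSeq) runs beside and across IRF1, the gene of an interferon-induced transcription factor. It measured 13.9, 14.7 and 16.99 CPM at 6 h, 2.91, 2.48 and 3.50 CPM at 24 h and 1.38, 1.26 and 1.17 CPM in control. Its rise was thus high at 6 h and mostly gone at 24 h, with log2 fold changes of 3.59 ± 0.16 and 1.23 ± 0.19 (edgeR adjusted p = 4.29e-11 and 5.39e-05). BISPR (chr19:17405686-17419324, plus strand) starts 56 bases from BST2, the gene of tetherin, a membrane protein that holds back budding viruses. It measured 7.01, 6.75 and 7.06 CPM at 6 h, 6.93, 8.19 and 8.06 CPM at 24 h and 1.44, 1.61 and 1.63 CPM in control. BISPR stayed up at both times, with log2 fold changes of 2.15 ± 0.14 and 2.30 ± 0.13 (edgeR adjusted p = 4.99e-09 and 1.07e-09), and BST2 had 2.36 ± 0.04 and 3.24 ± 0.04.

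The promoters of these 3 lncRNAs are shown because they were at least 2-fold higher at 6 h and held a motif that interferon-activated factors are known to bind. Each runs from 250 bases before to 50 after the RefSeq start site (GRCh38.p14, plus strand). Capitals mark matches to the ISRE core (GAAA, any 2 bases, GAAA), on either strand, in IRF1-AS1 and PSMB8-AS1, and to the gamma-activated site (GAS) TTCNNNGAA, a palindrome that both strands share, in BISPR. The windows are chr5:132410679-132410978 for IRF1-AS1, chr6:32843836-32844135 for PSMB8-AS1 and chr19:17405436-17405735 for BISPR.
IRF1-AS1: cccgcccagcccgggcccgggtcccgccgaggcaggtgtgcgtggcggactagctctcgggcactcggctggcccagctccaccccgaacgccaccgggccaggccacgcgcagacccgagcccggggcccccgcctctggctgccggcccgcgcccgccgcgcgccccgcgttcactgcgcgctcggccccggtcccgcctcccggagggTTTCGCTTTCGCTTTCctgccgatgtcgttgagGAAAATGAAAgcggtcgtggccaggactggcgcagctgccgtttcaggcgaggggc
PSMB8-AS1: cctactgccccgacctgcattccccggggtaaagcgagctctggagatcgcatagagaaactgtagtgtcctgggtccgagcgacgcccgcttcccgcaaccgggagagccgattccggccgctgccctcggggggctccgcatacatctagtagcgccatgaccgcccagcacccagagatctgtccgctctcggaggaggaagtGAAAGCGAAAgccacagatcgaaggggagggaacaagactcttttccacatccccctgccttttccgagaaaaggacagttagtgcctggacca
BISPR: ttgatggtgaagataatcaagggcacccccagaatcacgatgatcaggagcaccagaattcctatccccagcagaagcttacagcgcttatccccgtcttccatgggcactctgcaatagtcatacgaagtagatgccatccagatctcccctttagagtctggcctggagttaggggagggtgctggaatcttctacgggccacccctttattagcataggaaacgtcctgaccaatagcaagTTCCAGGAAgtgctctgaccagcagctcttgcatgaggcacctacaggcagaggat
IRF1-AS1 held 3 ISRE matches, which begin 39, 33 and 6 bases before the start site and of which the first 2 overlap. The RefSeq start site of IRF1-AS1 lies 293 bases inside the span of the deposited table. PSMB8-AS1 held 1 ISRE match 44 bases before the start site and 1 GAS match 18 bases after it, not in capitals. BISPR held 1 GAS match that begins 6 bases before the start site. RefSeq promoters were matched for 115 of the 252 lncRNAs. The ISRE core was in 6 of these 115 (5.22%), against 3.57% of all 35116 promoters of the table, and the GAS motif in 11.3%, against 7.66%. By call at 6 h, the ISRE core was in 3 of 16 promoters of lncRNAs that were higher (IRF1-AS1, PSMB8-AS1 and MIR222HG), 1 of 35 of those lower (HCG11) and 2 of 64 of those not called (LBX2-AS1 and PRR26). The GAS motif was in 2 of the 16 (12.5%), 3 of the 35 (8.57%) and 8 of the 64 (12.5%). Of 5 matched promoters of lncRNAs at least 2-fold higher at 6 h, 2 held neither motif. These counts are small, and a match describes letters in the window only.

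**Figure D2:**
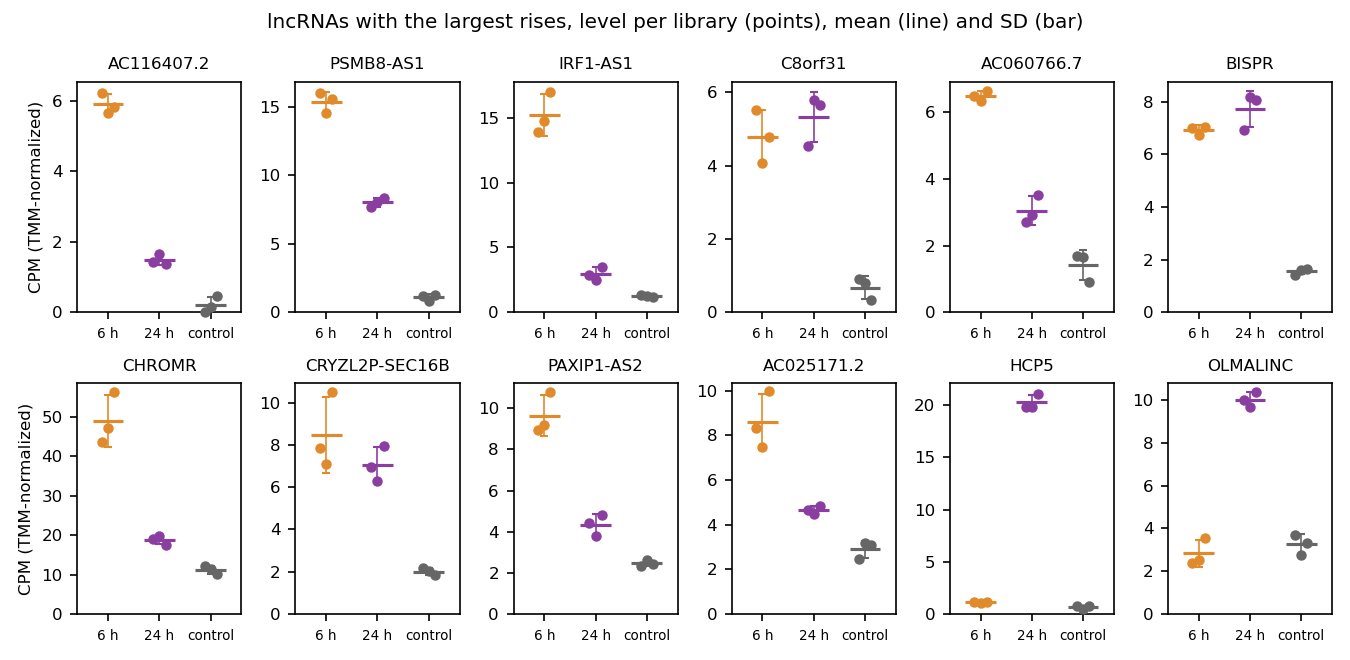
TMM-normalized CPM in each library (points) with mean (line) and SD (bar, n = 3) at 6 h, 24 h and in control, for the 10 lncRNAs with the largest rises at 6 h and for HCP5 and OLMALINC. The scale differs between panels. IRF1-AS1 and CHROMR are high at 6 h and lower at 24 h, while HCP5 and OLMALINC are high at 24 h only.

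CHROMR, named for a part in cholesterol homeostasis, was the most abundant of the 10 and reached 5 CPM in every group. It measured 43.5, 47.1 and 56.3 CPM at 6 h, 19.1, 19.7 and 17.6 CPM at 24 h and 12.1, 11.3 and 10.1 CPM in control. The 3 groups were apart, with log2 fold changes of 2.15 ± 0.10 at 6 h and 0.74 ± 0.11 at 24 h (edgeR adjusted p = 7.91e-11 and 3.3e-05). PRKRA, which encodes an activator of the antiviral kinase PKR and overlaps CHROMR on the other strand, had log2 fold changes of -0.10 ± 0.06 at 6 h and -0.41 ± 0.06 at 24 h, of which that at 24 h passed the test. AC116407.2, an unnamed gene of 860 bases on chromosome 17, measured 6.23, 5.64 and 5.81 CPM at 6 h and 1.42, 1.67 and 1.39 CPM at 24 h. In control it had 10 counts in all (0, 3 and 7), so its log2 fold change of 4.89 ± 0.34 at 6 h rests on few control reads. C8orf31 averaged 4.78 CPM at 6 h, 5.32 CPM at 24 h and 0.68 CPM in control. It lies 15377 bases from LY6E, an interferon-induced gene that had log2 fold changes of 2.44 at 6 h and 3.24 at 24 h, beside 2.77 ± 0.25 and 2.92 ± 0.24 for C8orf31. AC060766.7 lies 1292 bases from SLFN12, a member of the interferon-responsive schlafen family. The lncRNA had log2 fold changes of 2.17 ± 0.18 and 1.08 ± 0.19, and SLFN12 had 2.05 ± 0.09 and 0.97 ± 0.09. CRYZL2P-SEC16B, a read-through annotation, shares 56.3% of its exon bases with SEC16B on the same strand. It had log2 fold changes of 2.10 ± 0.18 and 1.82 ± 0.18, and SEC16B had 3.31 ± 0.16 and 2.15 ± 0.17. Reads of both cannot be told apart from these files. PAXIP1-AS2 and AC025171.2 had 1.98 ± 0.14 and 1.58 ± 0.14 at 6 h, and both were lower at 24 h than at 6 h.

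The falls at 6 h were smaller than the rises. The 10 largest ran from -0.63 to -0.84, and none reached 2-fold. DANCR (chr4:52712325-52723623, plus strand), a snoRNA host known for holding back differentiation, measured 21.0, 22.1 and 20.2 CPM at 6 h, 13.2, 13.5 and 13.7 CPM at 24 h and 38.7, 37.4 and 35.1 CPM in control. Each group lay apart from the others, and the fall deepened with time, to -0.82 ± 0.06 at 6 h and -1.46 ± 0.06 at 24 h (edgeR adjusted p = 9.97e-09 and 7.13e-12). LINC01963 did likewise, at -0.66 ± 0.11 and -1.44 ± 0.11. AC005670.3 fell to 27.6 ± 0.67 CPM at 6 h and 27.1 ± 0.55 CPM at 24 h, against 42.9 ± 1.68 CPM in control (SD, n = 3 each). Its log2 fold change was -0.63 ± 0.05 at 6 h and -0.66 ± 0.04 at 24 h, so the values at both times were close. OTUD6B-AS1, antisense to a deubiquitinase gene, was lower at 6 h only (-0.75 ± 0.06), with 16.0 ± 1.08 CPM at 6 h, 27.3 ± 0.69 CPM at 24 h and 27.0 ± 1.19 CPM in control. The others were AL158212.3 (-0.84 ± 0.14), LINC01559 (-0.77 ± 0.10), PRECSIT (-0.73 ± 0.15), PP7080 (-0.71 ± 0.13), GIHCG (-0.70 ± 0.11) and HCG11 (-0.68 ± 0.09). GIHCG and AL158212.3 reached 5 CPM only in control.

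At 24 h the largest rise was that of HCP5 (chr6:31463170-31478936, plus strand), which lies in the HLA class I region near MICB, a stress-induced ligand gene. It measured 1.17, 1.06 and 1.13 CPM at 6 h, 19.8, 19.9 and 21.1 CPM at 24 h and 0.72, 0.45 and 0.72 CPM in control. HCP5 thus rose late: its log2 fold change was 0.85 ± 0.22 at 6 h (edgeR adjusted p = 0.0128, and 0.134 without control replicate 2), 5.03 ± 0.13 at 24 h and 4.17 ± 0.11 between the times (edgeR adjusted p = 7.35e-14 and 6.4e-14). MICB, 15945 bases away, had 0.73 ± 0.04 at 6 h and 0.63 ± 0.04 at 24 h. OLMALINC, known from maturing oligodendrocytes, measured 2.40, 2.54 and 3.54 CPM at 6 h, 10.02, 9.67 and 10.4 CPM at 24 h and 3.72, 2.77 and 3.33 CPM in control. It was high at 24 h only, where its log2 fold change was 1.63 ± 0.14 (edgeR adjusted p = 1.14e-07). Its neighbour SCD, the gene of a fatty acid desaturase 8273 bases away, had 0.06 ± 0.02 at 6 h and 0.95 ± 0.02 at 24 h. AC009244.2 (1.99 ± 0.13), AC124067.4 (1.64 ± 0.16) and ELF3-AS1 (1.63 ± 0.13) were also higher at 24 h and did not pass at 6 h. The 10 largest rises at 24 h all belonged to lncRNAs under 5 CPM in control, so the rule required them to be higher in a treated group.

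Falls at 24 h reached further than at 6 h. After DANCR and LINC01963 came LINC00997 (-1.19 ± 0.09), VIM-AS1 (-1.16 ± 0.11), LINC00632 (-1.11 ± 0.42), AC093525.6 (-0.86 ± 0.12), PINK1-AS (-0.86 ± 0.12), NRAV (-0.85 ± 0.09), AL671762.1 (-0.81 ± 0.11) and MALAT1 (-0.74 ± 0.09). LINC00632 is the least certain of them. Its 6 h libraries measured 18.3, 2.91 and 5.29 CPM, its 24 h libraries 4.79, 5.11 and 6.87 CPM and its control libraries 8.81, 12.9 and 14.4 CPM. Its edgeR adjusted p of 0.0378 at 24 h was 0.0873 to 0.123 without control replicate 2, control replicate 3, 24 h replicate 1 or 24 h replicate 2. VIM-AS1 measured 18.6, 19.6 and 15.1 CPM at 6 h, 8.43, 7.52 and 8.28 CPM at 24 h and 16.4, 17.8 and 20.6 CPM in control. The 6 h and control ranges overlapped, and 24 h was below both.

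MALAT1 (chr11:65497688-65506516, plus strand), a nuclear-speckle RNA, held the most reads of the 252. It measured 1676, 1234 and 1690 CPM at 6 h, 933, 992 and 910 CPM at 24 h and 1499, 1456 and 1782 CPM in control. The 6 h and control ranges overlapped, and all 24 h libraries were lower (-0.74 ± 0.09 against control, edgeR adjusted p = 9.58e-06; -0.70 ± 0.09 against 6 h, edgeR adjusted p = 1.33e-05). The summed level of the 252 was 5977 to 7236 CPM at 6 h, 5727 to 6084 CPM at 24 h and 6640 to 7172 CPM in control. Without MALAT1 the sum was 4743 to 5560 CPM, 4817 to 5151 CPM and 5141 to 5390 CPM in the same order of groups. Of raw counts, the 252 made up 0.55% to 0.66% at 6 h, 0.62% to 0.65% at 24 h and 0.67% to 0.73% in control. Per kilobase of exon, over the 9 libraries, MALAT1 averaged 153 CPM, NORAD 72.7 CPM, AC005562.1 62.04 CPM, SNHG6 39.35 CPM and AFAP1-AS1 34.2 CPM. AD000090.1 averaged more, 765 CPM per kilobase, yet it varied from 147 to 848 CPM among the 6 h libraries alone and did not pass in any comparison. Without 6 h replicate 1 it was higher at 24 h than at 6 h, by 1.01 (edgeR adjusted p = 0.00936).

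Of the 44 lncRNAs higher at 6 h, 33 were lower at 24 h than at 6 h, 3 were higher and 8 did not pass. Of all genes tested, 30.6% were lower and 26.6% higher at 24 h than at 6 h. The 6 h libraries that gave the 44 calls are also the baseline here, which favours lower calls. IRF1-AS1 was lower at 24 h than at 6 h by more than any other lncRNA, at -2.36 ± 0.12 (edgeR adjusted p = 1.8e-10). The next falls were AC116407.2 (-1.99 ± 0.20), CHROMR (-1.40 ± 0.08) and PAXIP1-AS2 (-1.16 ± 0.11). PSMB8-AS1 was lower by -0.94 ± 0.08. BISPR (0.15 ± 0.10) and C8orf31 (0.16 ± 0.16) did not pass between the times. After HCP5, the largest rises were AC009244.2 (2.21 ± 0.13), AC124067.4 (2.11 ± 0.16), OLMALINC (1.77 ± 0.13), AC009275.1 (1.74 ± 0.24), ELF3-AS1 (1.68 ± 0.12) and LINC01694 (1.56 ± 0.13). Against control, 23 of the 44 were also higher than control at 24 h, 9 were lower than control and 12 did not pass. Of the 67 lower at 6 h, 29 were also lower at 24 h, 16 were higher and 22 did not pass. Of all genes tested, 24.7% were higher and 25.3% lower at 24 h against control. Both times share the control libraries. These splits were not counted among all genes called at 6 h, so they are a description.

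A total of 25 lncRNAs were called in opposite directions at the 2 times, 16 lower at 6 h and higher at 24 h and 9 the other way. Each of the 25 also passed the test of 24 h against 6 h, which opposite calls in the same fit make likely. The 25 are 9.92% of the 252, against 7.33% of all genes tested and 10.4% of coding genes at 5 CPM or more in at least 1 group. This share is near the background. The count of 25 was 14 with DESeq2, 15 without control replicate 1, 40 with library size only and 2 in the authors' normalized table. It thus depends on the scaling and on 1 library. LINC01559 differed most. It measured 4.22, 4.53 and 4.04 CPM at 6 h, 12.6, 12.4 and 11.5 CPM at 24 h and 7.79, 7.20 and 6.72 CPM in control, so no group overlapped another. Its log2 fold changes were -0.77 ± 0.10 at 6 h and 0.74 ± 0.09 at 24 h (edgeR adjusted p = 3.1e-05 and 4.51e-06). AL691482.3, FAM201A and AC008771.1 went the same way, at -0.50 ± 0.16, -0.47 ± 0.14 and -0.62 ± 0.11 at 6 h and 0.83 ± 0.14, 0.82 ± 0.12 and 0.39 ± 0.10 at 24 h. AL691482.3 and FAM201A reached 5 CPM only at 24 h, so the rule required both to be higher there. AL691482.3 lies wholly within ELF3 on the same strand and shares 67.3% of its exon bases with it. ELF3 averaged 85.4 CPM at 6 h, 244 CPM at 24 h and 123 CPM in control, with log2 fold changes of -0.53 ± 0.05 and 0.99 ± 0.04, and reads of both cannot be told apart. The 6 h calls of AL691482.3 and FAM201A are weak: without 1 library their edgeR adjusted p reached 0.0928 for AL691482.3 (control replicate 1) and 0.081 for FAM201A (control replicate 1). NUP50-DT and EMSLR went the other way. NUP50-DT measured 15.4, 12.7 and 13.5 CPM at 6 h, 6.37, 6.85 and 6.54 CPM at 24 h and 10.1, 10.5 and 11.1 CPM in control. All 3 groups were apart, with 6 h highest and 24 h lowest.

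**Figure D3:**
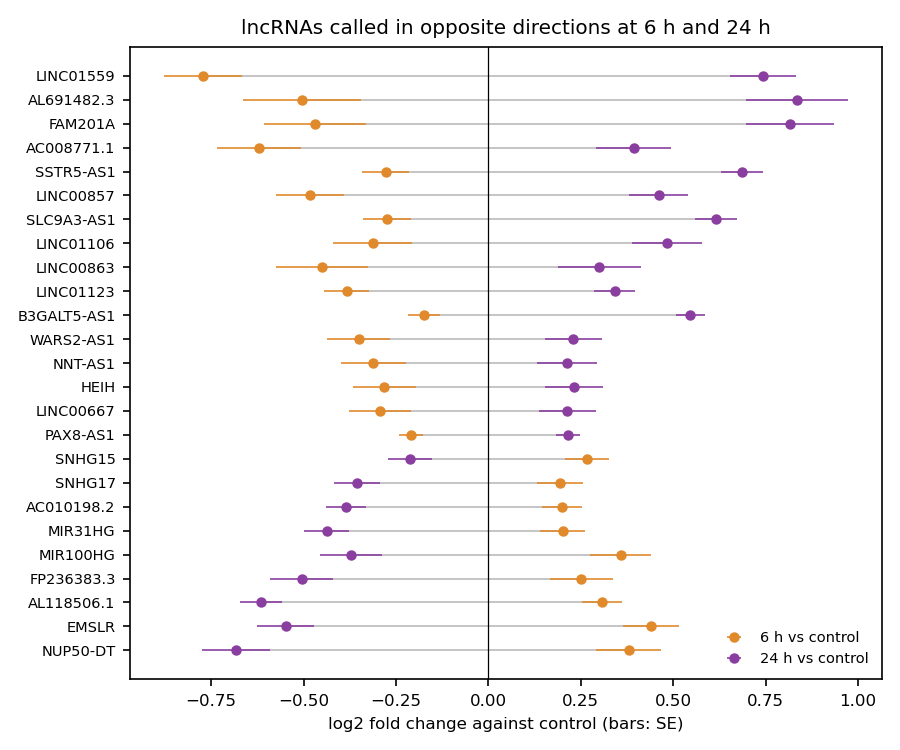
Log2 fold change against control (x axis, bars SE) at 6 h and at 24 h for the 25 lncRNAs called in opposite directions at the 2 times. LINC01559 is widest apart, at -0.77 at 6 h and 0.74 at 24 h.

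Among lncRNAs linked with interferon or antiviral responses in the literature, 6 of 31 listed symbols were well expressed, and 12 were tested. The list holds both IRF1-AS1 and CARINH, names of the same lncRNA, and was chosen with earlier results of these data known. Of the 6, HCP5, PSMB8-AS1, IRF1-AS1 and BISPR reached 5 CPM only in treated cells, so the rule required their rise and the counts are a description. At 6 h 5 were higher and 1 lower, and at 24 h 4 were higher, 1 lower and 1 did not pass. Of all 12 tested, 9 were higher and 1 lower at 6 h, and 6 were higher and 1 lower at 24 h. Their median log2 changes were 1.19 and 0.82, beside -0.01 and 0.00 for all genes. Of all genes tested, 17.5% were higher and 15.4% lower at 6 h, and 24.7% higher and 25.3% lower at 24 h. NRAV, known as a negative regulator of antiviral genes, was the one that fell. It measured 11.6, 11.6 and 13.2 CPM at 6 h, 8.18, 7.74 and 8.44 CPM at 24 h and 13.9, 13.6 and 16.8 CPM in control. NRAV was lowest at 24 h (-0.85 ± 0.09, edgeR adjusted p = 1.32e-06), whereas its fall at 6 h (-0.27 ± 0.09, edgeR adjusted p = 0.0353) had an adjusted p of 0.0984 to 0.206 without control replicate 3, 6 h replicate 1 or 6 h replicate 2. LUCAT1, a lncRNA reported to restrain interferon responses in myeloid cells, was higher at 6 h only, at 14.1 ± 0.62 CPM, with 7.86 ± 0.44 CPM at 24 h and 8.53 ± 0.69 CPM in control (SD, n = 3 each). Its log2 fold change at 6 h was 0.72 ± 0.09 (edgeR adjusted p = 9.29e-06).

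Host genes of snoRNAs, which guide modification of ribosomal RNA, were lower at 24 h with TMM scaling, though not in the authors' normalized table. Of 31 listed, 19 were well expressed. At 6 h 3 were higher, 3 lower and 13 did not pass, with a median log2 change of 0.04. At 24 h 0 were higher, 14 lower and 5 did not pass, with a median of -0.21 beside 0.00 for all genes, of which 25.3% were lower. The authors' normalized table, in which the median gene was at 0.37, gave a median of 0.22 for the 19, which is -0.15 against the median gene, with 1 higher and 1 lower call. Against 6 h, 15 of the 19 were lower at 24 h and 0 higher, while 30.6% of all genes tested were lower and 26.6% higher. With library size only 8 of the 19 were lower and 2 higher, and the authors' normalized table gave 0 lower and 0 higher. SNHG29, the most abundant, measured 301, 298 and 277 CPM at 6 h, 192, 192 and 197 CPM at 24 h and 302, 294 and 294 CPM in control. The 24 h libraries were below all others (-0.61 ± 0.03, edgeR adjusted p = 6.34e-10). SNHG16 (-0.58 ± 0.03) and GAS5 (-0.20 ± 0.04), named for its accumulation in growth-arrested cells, were also lower at 24 h. ZFAS1 was higher at 6 h (0.27 ± 0.04, edgeR adjusted p = 0.0002) and did not pass at 24 h. Its locus starts against that of ZNFX1, an interferon-induced RNA-binding protein gene on the other strand, which averaged 902 CPM at 6 h, 260 CPM at 24 h and 140 CPM in control. Transcripts of snoRNA hosts are known targets of nonsense-mediated decay. Of 15 decay factors, 3 were higher and 1 lower at 6 h, and 1 was higher and 4 lower at 24 h, with medians of 0.04 and -0.08. Over all genes, 32.9% were called at 6 h and 50.0% at 24 h. The part of decay factors in the fall of the host genes was not tested.

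**Figure D4:**
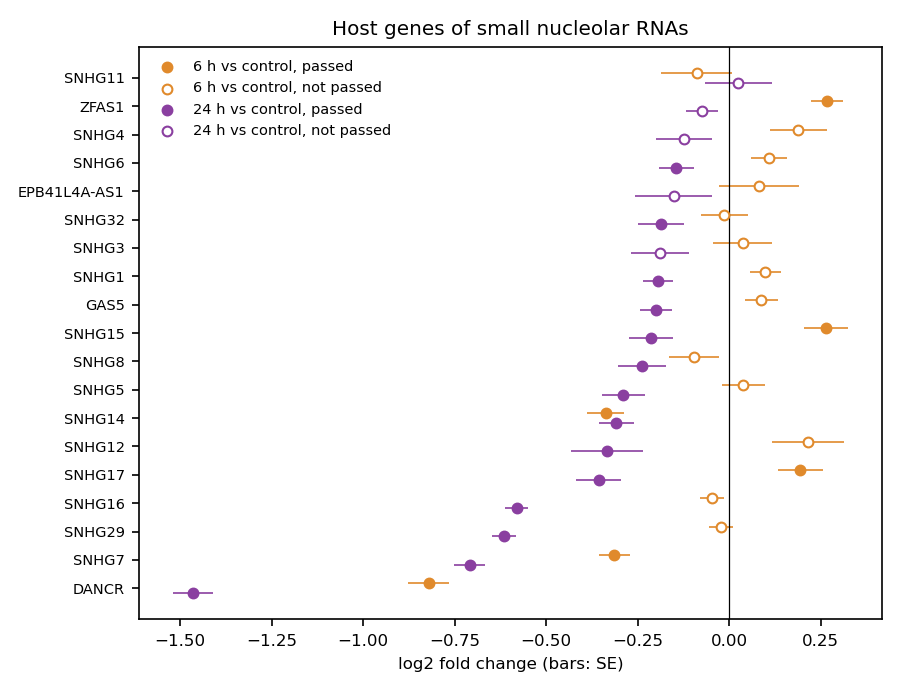
Log2 fold change against control (x axis, bars SE) of the 19 well-expressed snoRNA host lncRNAs at 6 h and 24 h. Filled points passed the test at adjusted p under 0.05; at 24 h 14 are filled and all of these are below 0, with DANCR lowest at -1.46.

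Of 25 nuclear and chromatin-linked lncRNAs, 11 were well expressed under the symbol listed, and older symbols were not searched. At 6 h 1 was higher and 1 lower, and at 24 h 2 were higher and 6 lower, with medians of -0.04 and -0.20 (0.11 and 0.22 in the authors' normalized table, or -0.02 and -0.15 against its median gene). Of all genes, 32.9% were called at 6 h and 50.0% at 24 h. NEAT1, the scaffold of paraspeckles, measured 201, 188 and 260 CPM at 6 h, 277, 272 and 239 CPM at 24 h and 215, 184 and 199 CPM in control. It was higher at 24 h (0.40 ± 0.09, edgeR adjusted p = 0.00227), while MALAT1, its neighbour on chromosome 11, was lower. Of 12 paraspeckle protein genes, 5 were higher and 3 lower at 6 h, and 2 were higher and 6 lower at 24 h. NORAD, on this list though a cytoplasmic RNA, binds Pumilio proteins. It was lower at both times, at 337 ± 18.0 CPM at 6 h and 365 ± 6.12 CPM at 24 h, against 462 ± 6.45 CPM in control (SD, n = 3 each). Its log2 fold changes were -0.46 ± 0.03 and -0.34 ± 0.03, and at 24 h the authors' normalized table gave 0.10. HOTTIP, named here after its values were seen, lies at the end of the HOXA cluster and was higher at 24 h only. It measured 5.39, 4.81 and 5.78 CPM at 6 h, 13.4, 11.4 and 12.2 CPM at 24 h and 6.41, 4.63 and 4.96 CPM in control.

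Of 28 microRNA host lncRNAs, 8 were well expressed. At 6 h 5 were higher and 0 lower, and at 24 h 1 was higher and 4 lower, with medians of 0.21 and -0.17 (0.24 at 24 h in the authors' normalized table, or -0.13 against its median gene). Of all genes, 17.5% were higher at 6 h and 25.3% lower at 24 h. The 5 higher at 6 h were 1 without control replicate 1, without control replicate 2, with DESeq2, with library size only and in the authors' table, and 2 without 6 h replicate 3. The 24 h median was -0.34 without 24 h replicate 1. MIR100HG measured 44.1, 42.2 and 53.3 CPM at 6 h, 29.9, 29.9 and 25.6 CPM at 24 h and 37.5, 36.1 and 36.8 CPM in control. The 3 groups were apart, with 0.36 ± 0.08 at 6 h and -0.37 ± 0.08 at 24 h (edgeR adjusted p = 0.00351 and 0.00177), where the authors' table gave 0.06 at 24 h. MIR31HG showed the same order, at 0.20 ± 0.06 and -0.44 ± 0.06. Its 6 h call and that of MIRLET7BHG (0.21 ± 0.06) did not hold when some single libraries were left out, with edgeR adjusted p of 0.064 to 0.0701 for MIR31HG and 0.058 to 0.0893 for MIRLET7BHG. MIR4435-2HG was lower at 24 h (-0.17 ± 0.05), with an edgeR adjusted p of 0.0559 without control replicate 1, and was 0.27 in the authors' table. These are levels of the host transcripts, and mature microRNAs were not measured.

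Of 35 tumour-associated lncRNAs, 11 were well expressed, with 1 higher and 5 lower at 6 h and 2 higher and 5 lower at 24 h (medians -0.06 and -0.17, and 0.10 and 0.27 in the authors' table, or -0.03 and -0.10 against its median gene). Of all genes, 15.4% were lower at 6 h and 25.3% at 24 h. The 5 lower at 6 h were 3 without control replicate 3 and 0 in the authors' table. CASC19, from the region beside MYC, fell to 40.7 ± 2.49 CPM at 6 h and 33.1 ± 0.94 CPM at 24 h, against 49.2 ± 0.47 CPM in control (SD, n = 3 each). AFAP1-AS1, known for high levels in pancreatic cancer, moved little, at 219 ± 10.3 CPM, 237 ± 3.61 CPM and 241 ± 6.05 CPM in the same order of groups. Its 6 h call (-0.14 ± 0.04, edgeR adjusted p = 0.00735) had an adjusted p of 0.0529 without control replicate 3, and the authors' table gave 0.03. VPS9D1-AS1 was lower at 6 h (-0.26 ± 0.06), and PAX8-AS1, among the 10 most abundant, was lower at 6 h (-0.21 ± 0.03) and higher at 24 h (0.21 ± 0.03). Of 16 lncRNAs linked with p53 and growth arrest, 4 were well expressed: GAS5, MIR22HG, NEAT1 and PVT1. PVT1 was higher at 6 h (0.49 ± 0.08, edgeR adjusted p = 0.00014), at 18.0 ± 1.32 CPM, with 12.3 ± 0.90 CPM at 24 h and 12.9 ± 0.53 CPM in control. MIR22HG was lower at 24 h (-0.48 ± 0.10).

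Overlap with protein-coding genes was common: 124 of the 252 lncRNAs overlapped one on the opposite strand, 48 one on the same strand and 20 both, in 208 pairs, of which 156 had a tested coding gene. Without a stated counting strand, reads from overlapping genes cannot be told apart. Exons were known for 228 of the lncRNAs from GENCODE release 29, and 101 of the 152 overlapping ones shared exon bases with a coding gene. At 6 h, 56 called lncRNAs had a tested overlapping coding gene. For 24 of them a coding gene was called the same way, for 7 the opposite way (1 lncRNA counts under both) and for 26 none was called. At 24 h the counts were 76, with 40, 16 and 23, of which 3 count under both directions. Of coding genes at 5 CPM or more in at least 1 group, 22.4% were higher and 20.8% lower at 6 h. At 24 h these shares were 29.1% and 32.7%. A lncRNA with more than 1 overlapping coding gene had more chances to match. The 100 lncRNAs with no overlap were called at rates like the rest, with 45.0% against 43.4% at 6 h 63.0% against 61.2% at 24 h and 63.0% against 66.4% between the times.

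Across the 112 opposite-strand pairs, Pearson's r between the log2 changes of the lncRNA and the coding gene was 0.68 at 6 h and 0.57 at 24 h (Spearman's rho 0.24 and 0.48). Across the 44 same-strand pairs it was 0.59 and 0.52 (Spearman's rho 0.43 and 0.33). These are descriptions across gene pairs that share libraries, and in part reads and genes. Coding partners of PSMB8-AS1 rose with it, at 4.03 ± 0.04 for TAP1, 3.84 ± 0.05 for PSMB9 and 2.66 ± 0.04 for PSMB8 at 6 h. TAP1 averaged 698 CPM at 6 h, 177 CPM at 24 h and 42.9 CPM in control, far above the lncRNA, and 23.4% of the exon bases of PSMB8-AS1 lie in TAP1 exons. IRF1 had 2.93 ± 0.05 at 6 h and 0.73 ± 0.05 at 24 h, the same order as IRF1-AS1. VIM, the gene of the mesenchymal filament protein vimentin, fell to 1535 CPM at 24 h, against 3127 CPM in control (-1.03 ± 0.02), with VIM-AS1 at -1.16. ELF3, an epithelial transcription factor gene, had 0.99 ± 0.04 at 24 h, with ELF3-AS1 at 1.63, but was lower at 6 h (-0.53 ± 0.05), where ELF3-AS1 was at -0.05. HOXA13 had 1.31 ± 0.04 at 24 h, with HOTTIP at 1.22 ± 0.12, and only 1.69% of the exon bases of HOTTIP lie in HOXA13 exons.

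Other pairs differed in size or direction. BISPR shares 19.9% of its exon bases with MVB12A on the same strand, and MVB12A had 0.12 ± 0.07 at 6 h and -0.11 ± 0.07 at 24 h. PAXIP1 had -0.12 ± 0.07 at 6 h, beside 1.98 for PAXIP1-AS2. PINK1-AS was lower at 24 h while DDOST, on the same strand, was higher (0.26 ± 0.03) and PINK1, the gene of a mitochondrial kinase on the other strand, was lower (-0.45 ± 0.07). AL671762.1 shares 68.8% of its exon bases with HSPA1B, a heat shock protein gene that averaged 794 CPM at 6 h, 115 CPM at 24 h and 415 CPM in control. AL671762.1 measured 35.6, 48.0 and 45.1 CPM at 6 h, 20.9, 19.3 and 20.7 CPM at 24 h and 31.4, 42.4 and 32.5 CPM in control. Its 24 h libraries were below all others, while its 6 h and control ranges overlapped. All exon bases of AC006064.4 lie in GAPDH exons on the other strand. It measured 7.31 CPM over the 9 libraries and GAPDH 3201 CPM; strand could not be used to separate them.

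**Figure D5:**
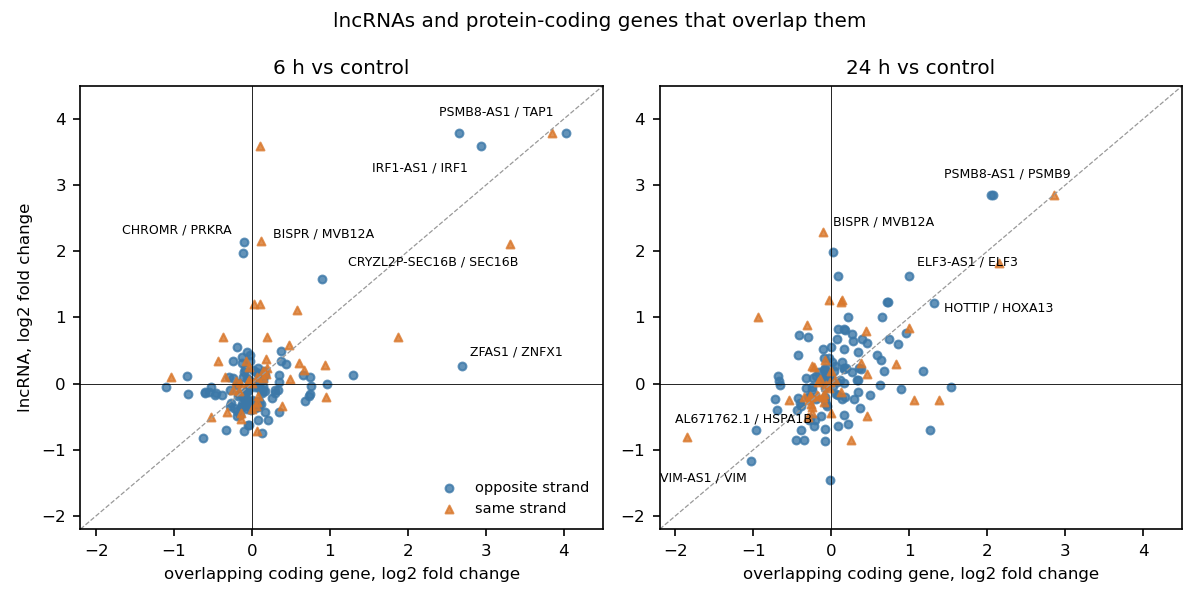
Log2 fold change of each lncRNA (y axis) against that of a protein-coding gene that overlaps it (x axis), for 112 opposite-strand pairs (circles) and 44 same-strand pairs (triangles) at 6 h and 24 h against control. The dashed line marks equal change. At 6 h PSMB8-AS1 lies near it with TAP1 and PSMB9 but above it with PSMB8, and IRF1-AS1 lies above it with IRF1. At 24 h VIM-AS1 and HOTTIP lie near it with VIM and HOXA13. CHROMR and BISPR lie above partners near 0 at 6 h.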

How the data were processed

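RNA from 9 SUIT2 libraries was sequenced on an Illumina HiSeq 3000, per the labels' protocols. STAR 2.7.8a, Partek and hg38 were used, per the submitters' processing notes. Annotation release, counting and strand settings are not stated there or in the labels. Estimated counts per gene were deposited, of which 18.2% of values were not whole. The test was designed for counts, so these were rounded first. A second deposited table holds a signal, which its name calls TMM-normalized counts with 0.0001 added.

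Genes were tested with edgeR 4.0.16 (R 4.3.3, limma 3.58.1): TMM factors, minimum count 10 and minimum total 15 (16964 genes), 1 model over 9 libraries with 6 residual degrees of freedom, the quasi-likelihood test and Benjamini-Hochberg adjustment over all genes tested. Each standard error was obtained by dividing the size of the log2 fold change by √F. The test was checked on simulated data. No replicate pair agreed within sampling noise (mean chi-square 1.46 to 3.96 per gene), so each library counted once.

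Gene spans are those of the deposited table (hg38, 1-based, end taken as Stop minus 1), and exons are from GENCODE release 29. For 81.6% of shared symbols the start was the same there. Promoters are from RefSeq (GRCh38.p14), with no match for 137 lncRNAs.

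The lncRNAs and gene lists were chosen with earlier results of these data known. List genes were matched by the symbol listed, without a search of older symbols. The lists cover interferon-linked, snoRNA host, microRNA host, nuclear and chromatin, p53 and growth arrest, and tumour-associated lncRNAs, paraspeckle proteins, decay factors and cell type markers. Genes named were, in each comparison, the 10 with most rise and the 10 with most fall among called genes whose groups did not overlap, the 10 with most reads, up to 4 per list, up to 6 called in opposite directions, and overlapping or neighbouring coding genes; not all are named. Alternatives were DESeq2 1.42.0, other scalings, filters and thresholds, a replicate block, 2 groups per fit, leaving out each library, limma on the deposited signal table (log2, 1 added), and other membership rules. Figures used Python 3.11.15 and matplotlib 3.10.9.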

Additional observations from a re-analysis of the deposited data

Results flagged for a closer look

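Each lncRNA here was called in opposite directions against control at 6 h and at 24 h. The test of 24 h against 6 h also passed at an edgeR adjusted p under 0.05. Lower and higher calls in the same fit make that pass likely, so its p-values are a description. LINC01559 was higher at 24 h than at 6 h by 1.51 (log2, adjusted p = 1.46e-09), and 24 h was above every library of the other groups. AL691482.3 was higher at 24 h by 1.34 (adjusted p = 7.61e-07), and ELF3, which shares 67.3% of its exon bases on the same strand, by 1.52. FAM201A was higher at 24 h by 1.29 (adjusted p = 2.29e-07). AL691482.3 and FAM201A reached 5 CPM only at 24 h, so the rule required both to be higher there and their tests are a description. AC008771.1 was higher at 24 h by 1.01 (adjusted p = 6e-07). PAX8-AS1 was higher at 24 h by 0.42 (adjusted p = 1.76e-08). NUP50-DT was lower at 24 h than at 6 h, by -1.06 (adjusted p = 3.99e-08). EMSLR was lower at 24 h, by -0.99 (adjusted p = 1.26e-08). MIR100HG was lower at 24 h, by -0.73 (adjusted p = 1.09e-06), and MIR31HG by -0.64 (adjusted p = 1.54e-07). They were chosen from 252 lncRNAs for this pattern, and both effects share the control libraries. Opposite calls made up 9.92% of the lncRNAs and 10.4% of coding genes at 5 CPM or more. The 6 h calls of AL691482.3, FAM201A and MIR31HG did not pass when some single libraries were left out. DESeq2 gave 14 opposite calls, and the authors' normalized table gave 2.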

How the results depend on the processing

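Of 111 named results of single lncRNAs, 70 kept their direction and side of the threshold under every alternative, and 100 did so under every alternative but limma on the authors' normalized table. That table turned the sign of AFAP1-AS1 at 6 h (0.026) and of NORAD (0.10), GAS5 (0.24), MIR100HG (0.062) and MIR4435-2HG (0.27) at 24 h, but its median gene was at 0.13 and 0.37, and all 5 lay below it. It gave 34 calls at 6 h (29 higher, 5 lower), 128 higher and 5 lower at 24 h, and 21 lower between the times. Library size only gave 28 higher and 105 lower at 6 h and 44 lower between the times. AD000090.1 between the times (-0.16) was 0.055 with library size only, 0.028 with the replicate block and 0.45 in the authors' table, and ran from -0.58 without 24 h replicate 1 to 1.01 without 6 h replicate 1 (0.024 without 24 h replicate 2). The cause of these changes was not tested.

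Membership changed the number of lncRNAs and with it the calls. Of all genes tested, 32.9% were called at 6 h (17.5% higher), 50.0% at 24 h (24.7% higher) and 57.2% between the times (26.6% higher). No share of coding genes at 2 CPM or 10 CPM is given, so these counts are a description. At 10 CPM (140 lncRNAs), 29 were higher at 6 h, 96 called and 35 higher at 24 h, and 101 called and 42 higher between the times. At 2 CPM (546 lncRNAs), 176 were called and 76 higher at 6 h, 279 called with 162 higher and 117 lower at 24 h, and 311 called with 183 higher and 128 lower between the times. With 5 CPM in all 3 groups (177 lncRNAs), 80 (45.2%) were called and 29 higher at 6 h. At 24 h 101 (57.1%) were called and 38 higher, and between the times 111 (62.7%) were called and 51 higher. Without overlapping lncRNAs (100 left), 45 were called (19 higher, 26 lower) at 6 h, 63 (32 and 31) at 24 h and 63 (32 and 31) between the times.

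Leaving out each library in turn gave 89 to 110 calls at 6 h (34 to 47 higher, 55 to 64 lower), 139 to 148 at 24 h (72 to 77 higher, 67 to 72 lower) and 152 to 164 between the times (77 to 89 higher, 72 to 78 lower). The replicate block gave 107, 155 and 161 calls. No same-numbered pair of libraries was seen to deviate together (correlations of -0.06 to 0.02). With few libraries per group, this cannot exclude that same-numbered samples shared a culture or batch. Of the lncRNA groups whose 24 h median was below 0, the snoRNA hosts, microRNA hosts, nuclear, p53-linked and tumour-associated lncRNAs were above 0 in the authors' table, at 0.22, 0.24, 0.22, 0.28 and 0.27, and below its median gene, at -0.15, -0.13, -0.15, -0.09 and -0.10. Control libraries held 15101734 to 19632741 estimated counts, and the effect of depth on genes near the threshold was not tested.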
